A study of Mus musculus with 6 samples.

Results

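The comparison is between GABPa read alone and GABPa read with CREB1 added, on protein binding microarrays, in which a tagged protein is bound to many double-stranded DNA probes and the bound protein is read as fluorescence. The 4 arrays with tagged GABPa, of 6 arrays in the series, were used: 2 of GABPa alone and 2 of GABPa with CREB1. The members are all 6889 custom sequences printed on those arrays, read at 165480 spots per array. Per the labels, the DNA-binding domain of GABPa was fused at its N terminus to glutathione S-transferase (GST) and was translated in vitro from 570 ng of plasmid in a 250 µl reaction at 37 °C for 2 h, of which 230 µl went onto the array. For the mixture, 66 ng of plasmid encoding the CREB1 bZIP domain, untagged, was translated in the same reaction as the 570 ng for GABPa. The labels list the domain as bZIP for every array, those of GABPa included, although GABPa is an ETS factor. The untagged CREB1 gives no signal, so every value here is a level of bound GABPa. Both proteins are isolated DNA-binding domains made in a cell-free kit, and the labels give no measure of how much of either protein was made. Whether replicate arrays received separately made protein is not given, so p-values measure only the spread between these arrays, which may be technical.

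Per the file headers, the replicate 1 arrays shared a slide (slide 1), as did the replicate 2 arrays (slide 2). On both slides GABPa alone was in array position 4 and GABPa with CREB1 in position 2, so array position and added CREB1 cannot be told apart. The median background surface that the scanner software subtracted was 1138 and 1551 intensity units with GABPa alone and 972 and 892 with CREB1, and its part in the results was not tested. Unscaled brightness differed between the slides too, and results are given on the scaled log2 scale with the unscaled values beside them.

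GABPa belongs to the ETS family of transcription factors, whose winged helix-turn-helix domain reads a GGAA core and the bases on either side of it. In cells GABPa pairs with GABPb, which does not contact DNA, and regulates many housekeeping and mitochondrial genes. CREB1 is a basic leucine zipper (bZIP) factor that binds as a dimer to the cAMP response element (CRE), TGACGTCA, and mediates transcription in response to cAMP. ETS and CRE sequences occur side by side and overlapping in promoters, and the array was built around such a composite site, to ask whether the 2 proteins bind it cooperatively.

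The composite site is the 16-mer ACCGGAAGTGACGTCA, with positions counted from 1 at its 5′ end. Positions 1 to 8 are called the ETS part here, position 9 belongs to neither list, and positions 10 to 16 hold the rest of the CRE. Each custom probe ends in the same constant stretch. The site was placed at the end far from that stretch (outer), next to it (inner) or between (middle), in both orientations, which gives the 6 placements of the intact site shown first, with the site in capitals.
outer forward: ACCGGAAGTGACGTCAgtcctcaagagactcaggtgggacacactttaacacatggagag
outer reverse: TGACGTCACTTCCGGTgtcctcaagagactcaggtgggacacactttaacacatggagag
middle forward: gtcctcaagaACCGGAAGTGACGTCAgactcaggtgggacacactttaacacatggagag
middle reverse: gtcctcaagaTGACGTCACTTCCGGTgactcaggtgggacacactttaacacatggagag
inner forward: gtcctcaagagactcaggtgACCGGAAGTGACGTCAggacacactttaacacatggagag
inner reverse: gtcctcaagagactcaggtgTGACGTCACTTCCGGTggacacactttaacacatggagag

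In each placement all 1128 single and double substitutions of the site were printed, and these are named by the intact base, its position and the new base (A11C). Further probes moved the intact site along the probe, trimmed the flank, shortened the site from either end or removed a base from the centre of the CRE. Those on which the results turn are shown with what is left of the site in capitals. The first pair has the 7-base element TGA(C or G)TCA in place of the CRE. The next lose the first 1, 2, 3 and 4 bases of the ETS end, and the last lose 3, 4, 8 and 9 bases of the CRE end of the reverse site.
CRE replaced, with C: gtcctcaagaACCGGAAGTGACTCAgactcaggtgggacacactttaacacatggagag
CRE replaced, with G: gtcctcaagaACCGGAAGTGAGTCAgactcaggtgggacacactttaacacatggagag
ETS end, 1 removed: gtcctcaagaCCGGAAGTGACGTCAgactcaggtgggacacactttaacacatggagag
ETS end, 2 removed: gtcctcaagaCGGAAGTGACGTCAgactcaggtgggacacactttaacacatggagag
ETS end, 3 removed: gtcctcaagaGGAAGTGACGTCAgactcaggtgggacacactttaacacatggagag
ETS end, 4 removed: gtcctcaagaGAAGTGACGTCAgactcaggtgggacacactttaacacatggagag
CRE end, 3 removed: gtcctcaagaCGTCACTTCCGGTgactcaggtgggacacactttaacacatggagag
CRE end, 4 removed: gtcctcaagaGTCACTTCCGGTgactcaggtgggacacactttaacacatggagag
CRE end, 8 removed: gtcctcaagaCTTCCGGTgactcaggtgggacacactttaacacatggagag
CRE end, 9 removed: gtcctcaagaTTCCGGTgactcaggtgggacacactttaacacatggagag

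With CREB1 added, the scaled signal of tagged GABPa rose at the intact composite site, as a mean of 5 placements, a direction that turned under 1 other scaling given with its value. Relative to that site the signal fell for most changes in the CRE, a difference that a constant shift between arrays cannot move. Some sites weakened in their ETS part came up from background: 30 of 144 with 1 ETS change and 50 of 1512 with 2, all with the CRE intact. So did 269 of 3024 with 1 change in each part. Over all custom sequences 403 of 6889 (5.85%) came up, a larger share than that of sites with 2 ETS changes. Most sites changed only in the ETS part stayed below background on all 4 arrays (91 of the 144 and 1448 of the 1512). Of 2322 sites with a change at positions 4 to 6, within the GGAA core, 2317 were below background on all 4 arrays and none came up. These statements rest on 2 kinds of value. The scaled signal of a sequence is the log2 processed intensity, as a mean over its spots, minus the array's 75th percentile over the 1639 sequences above background on all 4 arrays, and its change is the value with CREB1 minus the value alone. The change relative to the intact site subtracts the change at the intact site of the same placement, so a shift of all values of an array by a constant does not enter it. A sequence counted as above background on an array where more than 0.5 of its spots passed the scanner software's test for a signal well above background.

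By limma with the slide as a block, 946 of 6889 sequences (13.7%) rose and 371 (5.39%) fell on the scaled signal, at a Benjamini-Hochberg adjusted p under 0.05. On slides 1 and 2, 1703 and 1654 sequences were above background with GABPa alone, and 2120 and 2112 with CREB1. The 403 sequences above background only with CREB1 outnumbered the 4 that were above it only with GABPa alone. The bar was not equal in net intensity: negative controls read a median 960 and 1222 with GABPa alone and 718.5 and 591.75 with CREB1. On slide 2 the forward probe trimmed by 10 bases, at 2188 with GABPa alone, counted as below background. On slide 1 C2T in the middle forward placement, at 1605 with CREB1, counted as above it. How much of the imbalance comes from this bar was not tested. The 403 were chosen by background calls on these same arrays, so a higher signal with CREB1 in them largely follows from that choice. Of the 403, 388 were called higher, and in unscaled net intensity (spot median minus local background, the authors' own value) 391 were brighter with CREB1 on both slides, by a median 2.30-fold on slide 1 and 2.41-fold on slide 2. Among 1639 sequences measured above background throughout (on all 4 arrays), 275 rose and 351 fell, and all 351 that fell were also dimmer in net intensity on both slides. Of the 275 that rose, 152 were brighter in net intensity on both slides. Over all 1639, 1190 were dimmer in net intensity with CREB1 on both slides and 174 brighter. The median net ratio of the 1639 was 0.83 on slide 1 and 0.56 on slide 2, so the balance of rises and falls depends on the scaling. The other called sequences include 206 that rose and 11 that fell while below background on every array. Of those 206, 158 were brighter in net intensity with CREB1 on both slides.

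The changes on the 2 slides, which share no array, are set against each other in the plot of both slides. Across the 1639 sequences Pearson's r between the slides was 0.87 and Spearman's rho 0.76, as a description, since the sequences are variants of 1 site and share the arrays' scaling. The lists, set by where a site was changed, occupied different parts of the plot. For sequences above background on all 4 arrays the median scaled change was -0.31 for 2 changes within the CRE (942 of 1134 sequences) and 0.16 for 1 change in the CRE (105 of 126). It was 0.91 for 1 change in the ETS part (17 of 144), 0.93 for the intact site moved along the probe (36 of 36), and -0.22 over all 1639. A change of scaling by a constant moves all of these together: with the percentile taken over the spots of all custom sequences, the median of the moved sites was -0.014.

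**Figure D1:**
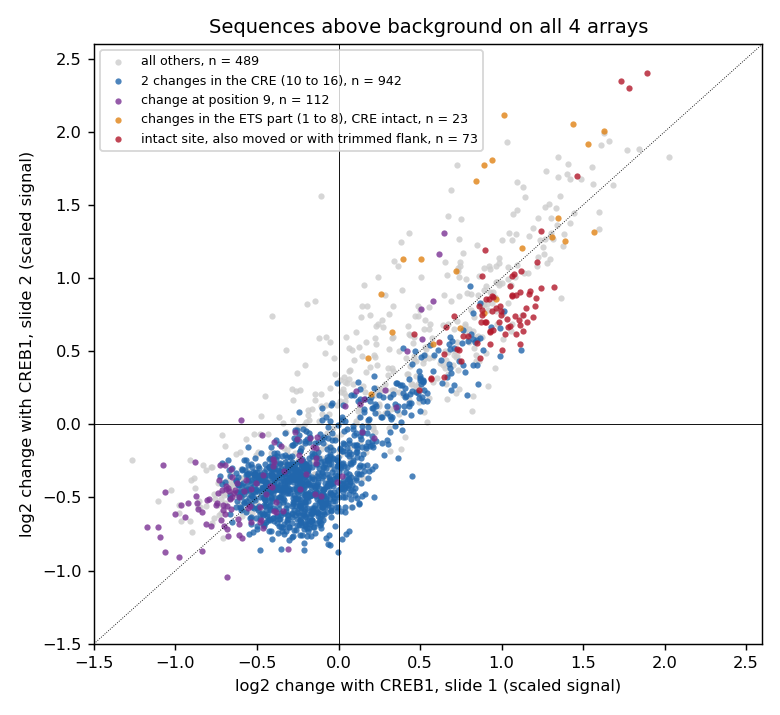
Scaled log2 change with CREB1 on slide 1 (x axis) against slide 2 (y axis) for 1639 sequences, those above background on all 4 arrays, 1 point per sequence, coloured by where the site was changed; the dotted line marks equal change. Intact sites lie in the upper right and sites with 2 changes in the CRE centre on -0.20 on slide 1 and -0.38 on slide 2.

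At the intact site in the middle forward placement, net intensities on slides 1 and 2 were 4291 and 8296 with GABPa alone and 7489.8 and 9190.2 with CREB1. The scaled signal rose by 0.88 ± 0.10 (SE, n = 2 per group, limma adjusted p = 0.0318), with 1.04 on slide 1 and 0.72 on slide 2. The array of GABPa alone on slide 1 was the dimmest, and the net intensities of the groups overlapped, since the lower CREB1 value, 7489.8, lay between the 2 values of GABPa alone.

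The other placements moved the same way on the scaled signal. The outer reverse site, the brightest of the 6, read 7987 and 14775 with GABPa alone and 10568 and 15349 with CREB1, a rise of 0.54 ± 0.06 (limma adjusted p = 0.0311). The inner forward site read 3409.5 and 6316 with GABPa alone and 4503 and 5481 with CREB1, a rise of 0.62 ± 0.08 (limma adjusted p = 0.0337). These placements were brighter with CREB1 on slide 1, and in net intensity the inner forward site was dimmer with CREB1 on slide 2. The inner reverse site, at 2765 and 4745 with GABPa alone and 3931 and 4329.8 with CREB1, rose by 0.84 ± 0.10 (limma adjusted p = 0.0294). The middle reverse site, at 4095 and 7732 with GABPa alone and 6919 and 7572 with CREB1, changed by 0.83 ± 0.17 and missed the threshold (limma adjusted p = 0.0898).

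The outer forward placement, in which the ETS end of the site is the very end of the probe, stood apart. There the net intensities were 964 and 943 with GABPa alone and 3251 and 4213 with CREB1. GABPa alone did not bind it well above background on either slide, and with CREB1 it was above background on both, with no overlap between groups. Net intensity was 3.37-fold and 4.47-fold higher on slides 1 and 2, and the scaled signal was called higher (limma adjusted p = 0.00239). For sequences below background in 1 group a bound on the scaled change can be set, with the mean of the bright group against the lowest signal that counted as above background on the arrays of the dim group, or the sequence's own where that was higher. In 188 of the 403 sequences that came up with CREB1 this bound exceeded the net ratio on both slides, so it is no lower limit across both kinds of value. The size of a gain from background is therefore given as the ratio of net intensities, with the call from the scaled signal.

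**Figure D2:**
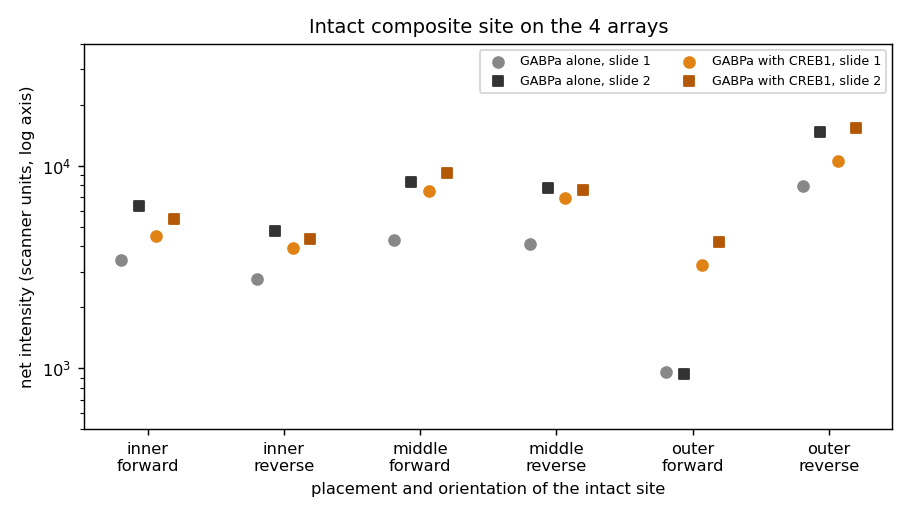
Net intensity (log axis, scanner units) of the intact composite site in its 6 placements on the 4 arrays, grey for GABPa alone and orange for GABPa with CREB1, circles for slide 1 and squares for slide 2. In the outer forward placement both CREB1 values, 3251 and 4213, lie above both values of GABPa alone, 964 and 943.

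Over the mean of the 5 other placements the scaled signal of the intact site rose by 0.74 ± 0.08 (SE, limma adjusted p = 0.0298). The size of this rise depends on how the arrays are set against each other. Without scaling it was 0.39 (limma adjusted p = 0.13), and with the percentile taken over the spots of all custom sequences, most of them at background, it turned to -0.20 (limma adjusted p = 0.121). Differences between sites do not move with a constant shift of an array, whereas the scaled changes given below do. Quantile normalization, which is no constant shift, moved the number of sites called higher relative to the intact site from 535 to 269.

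Changes in the CRE left GABPa binding nearly as it was when GABPa was alone, and lowered it when CREB1 was present. Averaged over the 5 placements, the 21 single changes at positions 10 to 16 lay between -0.19 (T14C on slide 2) and 0.26 (G13T on slide 1) of the intact site's log2 level with GABPa alone. With CREB1 the same changes lay between -1.17 (G10C, slide 1) and 0.11 (C15A, slide 2). By limma on the difference, 922 of the 1128 substitutions (81.7%) fell relative to the intact site and 110 (9.75%) rose. Site by site, 5764 of 6768 substituted sites (85.2%) fell and 535 (7.9%) rose. Of those 5764 falls, 4452 were at sites below background on all 4 arrays, where the difference reflects the intact site's change. Of the 535 rises, 56 were at sites above background on all 4 arrays and 325 at sites above it only with CREB1. Another 96 were at sites below it on all 4 arrays and 58 at sites with mixed calls. The 6768 include the outer forward placement, whose intact site was itself below background with GABPa alone. Among the 228 substitutions above background on all 4 arrays in all 5 placements, 199 fell and 0 rose. At an unadjusted p under 0.05 also 0 rose, and in the authors' deposited values 0 rose and 200 fell by the same limma fit. These 228 are 185 doubles and 21 singles within the CRE and 22 doubles with 1 change in each part. No substitution at position 9 or only in the ETS part passed this filter. All 110 that rose lay outside it, so the 0 reflects which substitutions could be measured.

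Of the 21 single changes in the CRE, all measured in every placement, 15 fell relative to the intact site, and all 21 were below 0 on both slides. The median was -0.57 and the SE of each was 0.17, a spread pooled over all substitutions. The small p-values rest on that pooled spread, and most substitutions behind it were not measured in every placement. In the authors' values A11C had a limma adjusted p of 0.00242. The CRE is a palindrome, TGAC at positions 9 to 12 followed by GTCA at 13 to 16. Its arms were not alike at positions 10 and 11 and their mirrors. Averaged over the 3 changes at a position, the fall was -0.80 at position 10 and -0.23 at its mirror, position 15, and -0.83 at position 11 and -0.44 at its mirror, position 14. The bases at the centre, positions 12 and 13, mirror each other and were close, at -0.72 and -0.76. So were positions 9 and 16, at -0.30 and -0.28, though no change at position 9 was measured in every placement. The difference between the arms was not tested. A11C stood lowest, at -1.02 (limma adjusted p = 1.86e-08). G13T followed at -0.995 (limma adjusted p = 4.66e-08), G10C at -0.97 (limma adjusted p = 9.31e-08) and C12A at -0.97 (limma adjusted p = 1.02e-07). In the middle forward placement A11C read 4214 and 7534 with GABPa alone and 3621 and 4764 with CREB1, which was 98.2% and 90.8% of the intact site alone and 48.3% and 51.8% of it with CREB1. With CREB1 both values were thus well under the intact site's, and alone both were near it.

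The same base changes differed in size within a position. At position 10 the changes were -0.97 for G10C, -0.84 for G10A and -0.57 for G10T. At position 11 they were -1.02 for A11C, -0.81 for A11T and -0.66 for A11G. Position 12 gave -0.97 for C12A, -0.74 for C12G and -0.46 for C12T, and position 13 gave -0.995 for G13T, -0.75 for G13C and -0.53 for G13A. The transitions at positions 10 to 13 (G10A, A11G, C12T, G13A) were less negative than the lowest change at their position, and at positions 11 to 13 they were the least negative of the 3. Differences between changes at a position were not tested.

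Falls were smaller toward the CRE end. T14G fell by 0.64 (limma adjusted p = 0.000237), T14C by 0.37 (limma adjusted p = 0.0354) and C15T by 0.35 (limma adjusted p = 0.0451). T14A at -0.30, C15G at -0.25, A16C at -0.34, A16T at -0.30 and A16G at -0.20 did not pass the threshold. C15A, at -0.08 (limma adjusted p = 0.657), stood closest to the intact site, and in the middle forward placement it read 4448 and 8703 with GABPa alone and 6935 and 8062 with CREB1. The mean at a position was -0.85 and -0.80 on slides 1 and 2 at position 11 and -0.26 and -0.19 at position 15.

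**Figure D3:**
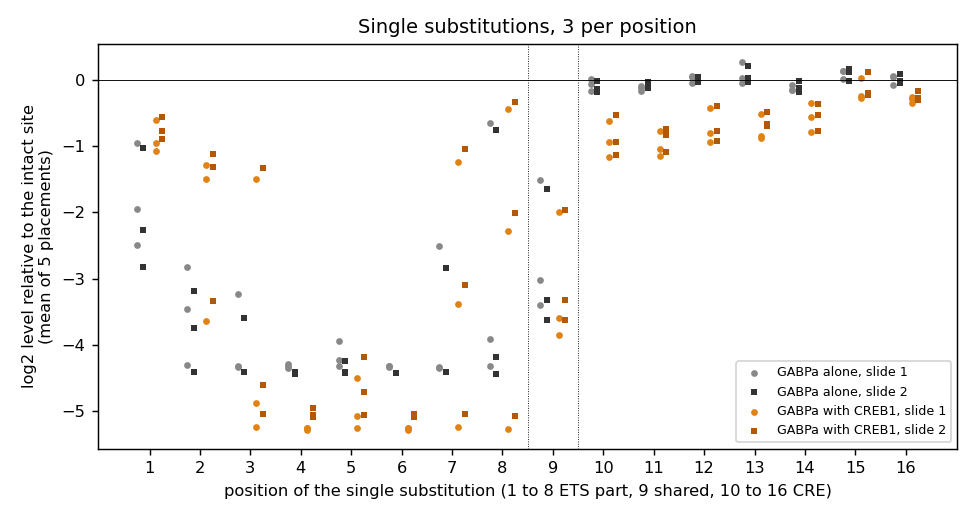
Log2 level of each single substitution relative to the intact site (y axis, mean of 5 placements) by its position in the 16-mer (x axis), grey for GABPa alone and orange for GABPa with CREB1, circles for slide 1 and squares for slide 2. At positions 10 to 16 the grey points lie between -0.19 and 0.26 and the orange points reach -1.17; at positions 1, 2, 7 and 8 several orange points lie above the grey ones, and points near -4.4 (grey) and -5.2 (orange) are at the array's background.

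Where 1 single change already lay under -0.5, a second change in the CRE brought the median fall to about -1.1, and where neither did it was smaller. Of 189 double changes within the CRE 185 were measured in every placement, and 176 of these fell, with a median of -1.06 and a middle range (quartiles) of -1.13 to -0.92. The lowest was G10A+G13C at -1.25, followed by C12G+T14C at -1.25, A11C+A16C at -1.25 and A11C+T14A at -1.24. The next 6 were G13C+A16G, A11T+T14G, A11T+G13T, G10C+C12A, A11T+T14C and A11G+G13C, from -1.22 to -1.20 (limma adjusted p at most 9.79e-11 for all 10). These p-values rest on the same pooled spread, and in the authors' values the limma adjusted p of G10A+G13C was 0.0023. In the middle forward placement G10A+G13C read 4774 and 8721 with GABPa alone and 3153 and 4136 with CREB1. It was brighter than the intact site on both arrays of GABPa alone, at 111% and 105% of it, and dimmer on both with CREB1, at 42.1% and 45.0%.

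A double change was lower than the lower of its 2 singles in 169 of 185 cases, and on each slide taken alone in 158. Where both singles lay under -0.5 (53 doubles), the median double was -1.11 while the median of the summed singles was -1.58, and all 53 doubles lay above their sum on both slides. Where 1 single did (103 doubles), the median was -1.08 against a summed -1.08. Where neither did (29 doubles), it was -0.52 against -0.62. The lowest sum was -2.02 and the lowest double -1.25 (G10A+G13C).

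**Figure D4:**
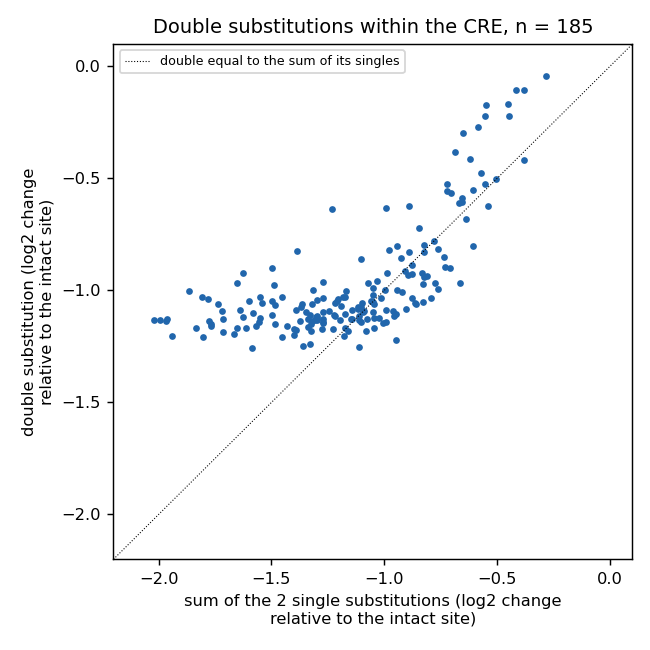
Change of each of 185 double substitutions within the CRE relative to the intact site (y axis, log2) against the sum of its 2 single substitutions (x axis, log2), each the mean of 5 placements; the dotted line marks equality. To the right the points lie on both sides of the line, such as C15A+A16C at -0.11 against -0.41 and C12T+A16C at -1.03 against -0.79. To the left they level off near -1.1 while the sums run to -2.02.

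Sites with another element in place of the CRE had values close to those of these doubles. The 4 probes with TGA(C or G)TCA in place of the CRE had scaled changes of -0.27, -0.07, -0.05 and -0.17, none past the threshold (limma adjusted p = 0.0924, 0.413, 0.534 and 0.156). Relative to the intact middle site of the same orientation these were -1.14, -0.94, -0.88 and -1.002, values with no test. This element is the one bound by AP-1 proteins, relatives of CREB1 within the bZIP class. The first of them read 5201 and 9682 with GABPa alone and 3815 and 5187 with CREB1, which was 121% and 117% of the intact site alone and 50.9% and 56.4% with CREB1. In unscaled net intensity it was dimmer with CREB1 on both slides.

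Shortening the reverse site from its CRE end showed where the gain ended. With 1, 2 and 3 bases removed the scaled changes were 0.51, 0.45 and 0.43, of which that for 2 bases passed the threshold (limma adjusted p = 0.0224). With 4 to 8 bases removed they were negative in all 5 probes, from -0.56 (6 bases) to -0.32 (5 bases), past the threshold for 4, 5 and 7 bases. With 3 bases removed, which leaves CGTCA of the CRE, the net intensities were 5321 and 9581 with GABPa alone and 6266 and 7567 with CREB1. With 4 removed, which leaves GTCA, they were 6328 and 11553 with GABPa alone and 4172 and 5097 with CREB1. The loss of that single base turned the direction of the scaled change on both slides, from 0.58 and 0.29 to -0.37 and -0.54. In net intensity the 3-base probe was brighter with CREB1 on slide 1 and dimmer on slide 2, and the 4-base probe was dimmer with CREB1 on both.

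The probes with 1 to 8 bases removed were all brighter than the intact site with GABPa alone. With 1 base removed the probe stood at 104% of it on both slides, and with 3 removed at 130% and 124%. With 8 bases removed, so that only the ETS part is left, the net intensities were 6768 and 11182 with GABPa alone and 4609 and 5217 with CREB1, or 165% and 145% of the intact site alone and 66.6% and 68.9% with CREB1. The intact middle reverse site read 4095 and 7732 alone, below every probe with 1 to 8 bases removed on both slides. Removal of the ninth base, which is position 8 of the site, took the net intensity to between 99 and 371 on the 4 arrays, and no probe shortened further was above background.

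From the ETS end the order was different. With the first base gone the forward site read 4536 and 8956 with GABPa alone and 7092 and 9340.0 with CREB1, a scaled rise of 0.88 (limma adjusted p = 0.0223), and it differed from the intact middle forward site by 0.01. With 2 bases gone it was below background alone and above it with CREB1, at 697 and 805 with GABPa alone and 2539 and 3135 with CREB1, 3.64-fold and 3.90-fold higher on slides 1 and 2 (limma adjusted p = 0.00239). With 3 gone, which leaves the GGAA core at the edge of the site, no array was above background, yet the net intensities were 311 and 378 with GABPa alone and 891 and 814 with CREB1 and did not overlap between groups. With 4 or more gone, which removes a base of the core, they were at most 427 alone and 247 with CREB1. The whole CRE, left when 8 bases were removed, read 259 and 219 with GABPa alone and 247 and 128 with CREB1, so no gain was detected at an intact CRE without an ETS part.

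**Figure D5:**
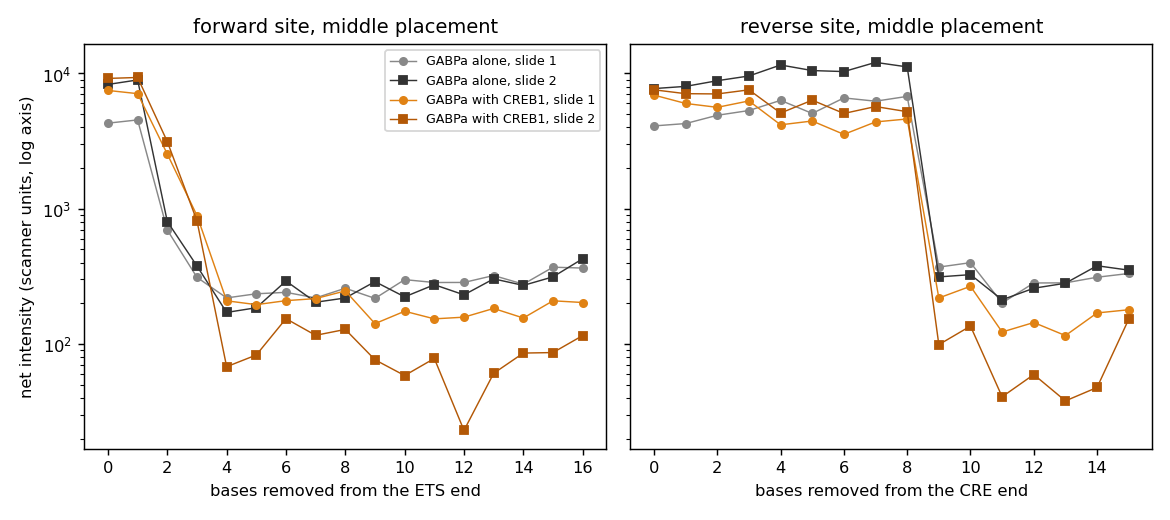
Net intensity (log axis, scanner units) of the middle placement site as bases are removed from its ETS end (left, forward site) or from its CRE end (right, reverse site), grey for GABPa alone and orange for GABPa with CREB1, circles for slide 1 and squares for slide 2. On the left the orange lines lie above the grey ones at 2 and 3 bases removed; on the right they fall below the grey ones from 4 bases removed on.

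Changes in the ETS part differed in whether sites were raised with CREB1. Of 144 sites with 1 change at positions 1 to 8, 52 were called higher and 30 went from below to above background. Among sites with a change at the core bases G4, G5 or A6, alone or with another, 6 of 2322 were called higher. All 6 carried G5T in the middle reverse placement, 1 of them as the single change and 5 as doubles, and were below background on all 4 arrays. Over the 5 placements the G5T single had median net intensities of 612 and 841 with GABPa alone and 641 and 780 with CREB1, and 5 other sites with G5T, in the outer reverse placement, were above background on some arrays. None of the 9 single changes at these bases was above background on any array in the middle forward placement. With a base of the core changed, G4A read 245 and 171 with GABPa alone and 175 and 74.5 with CREB1 in the middle forward placement, values at the level of a site with no ETS part. The other raised sites had changes at positions 1 to 3 before the core, at its last base A7, or at G8 after it.

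These changes are given in the middle forward placement. C2A read 1059 and 1309 with GABPa alone and 3439 and 4447 with CREB1. C3A read 849 and 1074 with GABPa alone and 3172 and 4098 with CREB1, and G8C read 755 and 879.5 with GABPa alone and 3232 and 3903 with CREB1. All 3 were below background on both arrays of GABPa alone and above it on both with CREB1, with no overlap. Net intensity was higher by 3.25-fold and 3.40-fold for C2A on slides 1 and 2, by 3.74-fold and 3.82-fold for C3A, and by 4.28-fold and 4.44-fold for G8C (limma adjusted p = 0.00291, 0.00245 and 0.00239). As a share of the intact site they rose from between 10.6% and 24.7% alone to between 42.4% and 48.4% with CREB1.

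Further changes outside positions 4 to 6 followed the same course from other starting levels. A7C went from 648 and 723 to 2501 and 2726 (3.86-fold and 3.77-fold), and C2T from 403 and 454 to 1605 and 1842 (3.98-fold and 4.06-fold). C2G, at 1476 and 1787 with GABPa alone and 3169 and 4605 with CREB1, was 2.15-fold and 2.58-fold higher, and A1T, at 1644 and 1846 with GABPa alone and 3879.8 and 5436 with CREB1, 2.36-fold and 2.94-fold higher. These sites all passed from below to above background with no overlap between groups (limma adjusted p between 0.00239 and 0.0173). C3G, C3T, A7G and G8T stayed below background on every array in this placement.

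The brighter ETS changes show the other end of the range. G8A, which stood closest to the intact site with GABPa alone, read 3209 and 5631 with GABPa alone and 5201 and 6239 with CREB1 and rose by 1.16 (limma adjusted p = 0.00543), and A1G read 2325 and 3910.2 with GABPa alone and 4230.0 and 5019 with CREB1 and rose by 1.44 (limma adjusted p = 0.00973). As a share of the intact site G8A was at 74.8% and 67.9% alone and at 69.4% and 67.9% with CREB1, so it kept its distance from the intact site. Averaged over 5 placements, in 4 of which it was above background on all arrays, its change relative to the intact site was 0.31 (limma adjusted p = 0.0766).

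Among sites with an intact CRE and a net intensity above 500, the dimmer ones had the larger gain in unscaled intensity. To keep the measurement that sorts the sites apart from the one that shows the change, sites with an intact CRE were binned by net intensity with GABPa alone on slide 1 and their log2 net ratio was read on slide 2. Its median was 1.56 for 72 sites at 500 to 1000, 1.24 for 36 at 1000 to 2000, 0.22 for 39 at 2000 to 4000 and 0.06 for 58 above 4000. Binned on slide 2 and read on slide 1, the medians were 1.56, 1.31, 0.87 and 0.62 (74, 32, 26 and 82 sites). Below 500 in net intensity the medians were negative in both directions of reading, from -1.14 to -0.18. The 500 is not the limit of background. The bins from 500 to 2000, which had the largest gains, also held sites below background with GABPa alone. Examples are the outer forward intact site, at 964 and 943 with GABPa alone, and A1T in the middle forward placement, at 1644 and 1846. Sites with 2 changes in the CRE had negative medians in all bins in both directions, from -0.97 to -0.32. Many of these sites share bases and placements, and no test was made across them.

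When an ETS change was combined with a CRE change, the count of gains differed with the CRE base changed. There were 3024 such doubles, of which 593 (19.6%) were called higher, 56 (1.85%) lower, and 269 went from below to above background. Over all custom sequences 13.7% were called higher and 5.39% lower. For each CRE change there were 144 sites, 1 for each of 24 ETS changes in 6 placements. Beside C15A 50 of 144 were called higher (34.7%), beside A16G 46, beside C15T 45 and beside C15G 44. Beside G10C and A11C 5 of 144 were (3.47% each), and beside C12A and G13T 7 each (4.86%). Called lower were 5 beside G10C, 7 beside A11C, 8 beside C12A and 9 beside G13T, against 0 beside C15A. The CRE changes with the deepest falls as single changes on an intact ETS part (A11C, G13T, G10C and C12A) were thus the ones beside which ETS-changed sites were least often called higher, and the mildest, C15A, the one beside which they were most often; these counts and the falls come from different sequences on the same arrays, and no test of the order was made.

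Among the 22 such combinations measured in all 5 placements, the change relative to the intact site ran from -0.93 to 0.27, and 8 fell. The highest, A1G+C15A at 0.27 (limma adjusted p = 0.119), did not pass the threshold. G8A+C15A (0.22), G8A+A16G (0.18), A1G+C15G (0.16), G8A+C15G (0.15), A1G+T14A (0.13), A1G+A16C (0.06), A1G+C15T (0.04) and G8A+A16T (-0.05) followed it, as did C15A+A16G within the CRE (-0.04). None of these 10 passed the threshold.

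Changes at position 9, the T that starts the CRE and follows the last base of the ETS part, differed by placement. Of the 18 sites with that single change, 6 were called higher and 3 lower on the scaled signal. The 3 lower were T9A, T9C and T9G in the outer reverse placement, where T9C read 5500.0 and 9009.8 with GABPa alone and 2849.5 and 4347.5 with CREB1. The 6 higher were all 3 changes in the middle reverse placement, T9C and T9G in the inner reverse and T9G in the middle forward placement. Of these, T9A in the middle reverse and both inner reverse sites were below background on all 4 arrays. In net intensity that T9A site was dimmer with CREB1 on both slides (ratios 0.97 and 0.77). T9C was dimmer on slide 2 in the middle reverse (0.88) and inner reverse (0.88) placements. T9G was brighter on both slides in each of these placements. T9G in the middle reverse placement came up from background, from 968 and 1336.0 with GABPa alone to 1772 and 1783.8 with CREB1 (limma adjusted p = 0.0029). In the middle forward placement, T9C read 3039 and 4314 with GABPa alone and 2954 and 3243 with CREB1, which was 70.8% and 52.0% of the intact site alone and 39.4% and 35.3% with CREB1. T9A read 1513 and 1739 with GABPa alone and 1234 and 1449.5 with CREB1. T9G read 1252 and 1388 with GABPa alone and 1460.5 and 1422 with CREB1, and its scaled change was 1.68 (limma adjusted p = 0.0297), or 0.80 relative to the intact site (limma adjusted p = 0.000145), while its net ratios were 1.17 and 1.02. Of these 3, T9C was above background on all 4 arrays, and it lay further from the intact site with CREB1 on both slides. Averaged over 5 placements T9C changed by -0.40 relative to the intact site (limma adjusted p = 0.0239), in a mean that includes 1 placement not above background throughout, and T9G by 0.05 (limma adjusted p = 0.799).

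Double changes that include position 9 held most of the deepest falls in scaled signal. Of the 106 of these doubles above background on all 4 arrays 53 fell and 3 rose, with a median of -0.53. Over all 1639 sequences above background on all 4 arrays 351 fell (21.4%) and 275 rose (16.8%), with a median of -0.22. The placements differed: the median was -0.63 for 62 of these doubles in the outer reverse placement. It was -0.23 for 22 in the middle forward and -0.23 for 21 in the middle reverse placement, near that of all 1639. T9G+A11C in the outer reverse placement fell the most, by 0.97 (limma adjusted p = 0.0144), from net intensities of 2824 and 4635 with GABPa alone to 1660.5 and 1996 with CREB1. T9C+C12G in the middle reverse placement fell by 0.94 (limma adjusted p = 0.00714), from 2645 and 3881 to 1445 and 1631. Of the 10 largest falls 7 carried a change at position 9, and 9 were in the outer reverse placement. The other 3 paired an ETS change with one at position 11 or 13: C3A+G13T at -0.82, A1T+A11G at -0.81 and C2G+A11C at -0.79, all outer reverse. The rest were T9G+A16T at -0.93, T9A+A11T at -0.91, T9G+C12G at -0.87, T9G+T14G at -0.85 and A1G+T9C at -0.81.

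A set of 4 sequences went from above background on both arrays of GABPa alone to below it on both with CREB1. T9C+A16C in the inner forward placement was at least 1.30-fold lower (limma adjusted p = 0.0116), with net intensities of 1904 and 2666 alone and 1274 and 1196 with CREB1. The other 3, T9C+C12T and A1G+A11C (inner forward) and T9G+G10T (outer reverse), were at least 1.20-fold, 1.18-fold and 1.54-fold lower and did not pass the threshold (limma adjusted p = 0.112, 0.0617 and 0.0521). All 4 carry a change at position 9 or in the CRE, as do most custom sequences. Of the 6889, 3024 have 1 change in each part, 1134 have 2 within the CRE and 810 are doubles with position 9. In the 4 sequences both net intensities with CREB1 were below both of those alone, which largely follows from how they were chosen.

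Where the intact site was moved along the probe base by base, the gain was found at nearly all positions. All 36 moved sites were above background on all 4 arrays and brighter in scaled signal with CREB1 on both slides, and 32 were called higher, with changes from 0.66 to 1.58. In net intensity the ratio ran from 1.25 to 2.26 on slide 1 and from 0.83 to 1.76 on slide 2. The forward site moved in by 1 base from the outer end had the largest rise, 1.58 (limma adjusted p = 0.00757), at 2928 and 4339 with GABPa alone and 5427 and 7648 with CREB1. The reverse site moved in by 1 base read 9353 and 16452 with GABPa alone and 17804 and 19569 with CREB1, a rise of 1.03 (limma adjusted p = 0.0205). The last of each series, next to the inner placement, rose by 0.91 (forward, limma adjusted p = 0.0408) and changed by 0.86 (reverse, limma adjusted p = 0.0615).

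Trimmed probes held the largest scaled rise among sequences above background throughout. Bases were removed before the site until it stood at the end of the probe (10 removed), and then from between the site and the constant stretch. Of the 40 trimmed probes 33 were called higher, and the scaled signal was higher with CREB1 on both slides in all 40. The shortest of each orientation are shown.
forward, 20 removed: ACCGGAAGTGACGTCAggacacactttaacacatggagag
reverse, 20 removed: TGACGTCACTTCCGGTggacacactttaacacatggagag

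With 1 base removed the forward site read 4353 and 7762 with GABPa alone and 7556 and 8679 with CREB1 and rose by 0.91 (limma adjusted p = 0.0333). With 10 removed, where the ETS end is the end of the probe, it read 1687 and 2188 with GABPa alone and 5079 and 6271 with CREB1 and went from below to above background, 3.01-fold and 2.87-fold higher on slides 1 and 2 (limma adjusted p = 0.00492). At 12 removed it read 1509.8 and 1689 with GABPa alone and 4736 and 5675 with CREB1, 3.14-fold and 3.36-fold higher (limma adjusted p = 0.00932).

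With 18, 19 and 20 bases removed the forward site was above background on all 4 arrays and had the 3 largest rises of all such sequences, 2.04, 2.04 and 2.15. At 20 removed it read 2483 and 2971 with GABPa alone and 5879.8 and 6516 with CREB1, with no overlap between groups (limma adjusted p = 0.0142). The reverse site, whose CRE end is then the end of the probe, did not show this: with 20 removed it read 10660.0 and 18101 with GABPa alone and 13691 and 15119 with CREB1, a change of 0.44 that did not pass the threshold (limma adjusted p = 0.0827), and with 1 removed it rose by 0.94 (limma adjusted p = 0.0376). The difference between the orientations was not tested.

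The remaining large rises were at sites with the CRE intact or changed at its last 3 bases. Among sequences above background on all 4 arrays they were A1C+A16T (1.93), A1C+C15G (1.86), A1C+C15A (1.82), A1C+A16G (1.81), A7T+A16G (1.80) and A7T+T14A (1.76), all middle forward, and A1G+G8A, middle reverse (1.82), with limma adjusted p between 0.00272 and 0.0114. Among those that came up from background, the 10 highest by the scaled bound were the forward probes trimmed by 10 to 14 bases, C2G+C15A, A1T+C15A, A7T+G8A, A1C+G8A (middle reverse) and the single change A1T, middle forward unless stated. Their net ratios on slides 1 and 2 were 2.36 and 2.56 for C2G+C15A, 2.59 and 2.46 for A1T+C15A, 2.93 and 3.66 for A7T+G8A and 3.69 and 2.93 for A1C+G8A. A1C+A16T read 1930.5 and 3005 with GABPa alone and 4091 and 4628 with CREB1, and A7T+G8A read 1263.5 and 1434 against 3707 and 5246. In both the groups did not overlap, and the CRE changes among these sites were at positions 14 to 16, whose mean falls as single changes were the smallest (-0.44, -0.23 and -0.28).

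The middle and inner placements held most of the sites that came up from background: of the 269 doubles with 1 change in each part, 72 were middle forward, 65 middle reverse, 68 inner reverse and 43 inner forward, against 13 outer forward and 8 outer reverse. In the outer forward placement, where the intact site itself was below background with GABPa alone, 29 doubles and 14 singles changed within the CRE came up as well. In the outer reverse placement, where GABPa alone was brightest, the doubles with 1 change in each part had a median change of -0.29 (165 of 504 above background on all 4 arrays), against 0.91 in the middle forward placement (68 of 504). The 4 probes with a simple repeat in place of the site were below background on all 4 arrays, with net intensities of at most 234 alone and 106 with CREB1, and not called in either direction.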

How the data were processed

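Per the file headers, Agilent Feature Extraction 12.0.1.1 made the spot intensities that the authors deposited, which are linear and from the Cy5 channel. It subtracted a background surface, detrended the array and put a surrogate where signal was not significant, also per the file headers. The authors' deposited values per probe name are intensity as well, the median over spots of spot median minus local background; this recomputation met 6891 of 6891 entries per array to within 0.01, so they are linear, unscaled and not centred.

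Control spots and spots marked as outliers (3.37% to 4.74% of custom spots) were left out. Surrogates stood at 62.3% to 71.0% of custom spots. The background surface rests on negative control spots, which, like the genomic spots, were brighter than the custom median. Dim custom sequences may therefore be over-subtracted, which was not tested. The log2 processed intensity, averaged over a sequence's spots, was scaled to each array's 75th percentile. Limma 3.58.1 in R 4.3.3 was fitted with a slide block and Benjamini-Hochberg adjustment over all sequences, all substituted sites or all 1128 substitutions; the last 2 are relative to the intact site, whose own error all such values share. The intact mean covers the 5 placements above background on all arrays. Bounds on the scaled change follow the rule given with the outer forward site. Named sequences are the intact sites, single substitutions in the CRE and measurable ones elsewhere, the 10 largest rises, falls and bounded rises, the 10 highest and lowest measured substitutions, and the ends of each series; other sequences are examples chosen after their values were seen. The lists and comparisons were chosen with earlier results of these data known. The fit was tested on simulated data. Alternatives were other scalings, background corrections, spot averages and filters, the authors' values, no block, and leaving out each array. The number of arrays limits the precision. With 2 arrays against 2 no exact permutation test can reach the threshold, and none was run. Files were read with Python 3.11.15, pandas 2.3.3 and the R package data.table (version 1.17.8).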

Additional observations from a re-analysis of the deposited data

Results flagged for a closer look

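The manufacturer's genomic sequences lie outside the comparison, carry no composite site by design and lack the constant stretch of the custom probes. Fitted together with the custom sequences by limma with the slide block, 10 of 3923 were higher with CREB1 and 2 were lower, with scaled log2 changes from -1.32 to 2.01 among those called. Their median changes were -0.12 on slide 1 and 0.04 on slide 2, and 80 of them were above background on all 4 arrays.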

How the results depend on the processing

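The direction of the intact site's change held in all alternatives but the percentile over all custom spots, where the mean was -0.20 and the middle forward, inner forward, inner reverse, middle reverse and outer reverse values were -0.067, -0.32, -0.10, -0.11 and -0.40. The call was lost with quantile normalization (0.73), with no scaling (0.39) and with the authors' table unscaled (0.27), and when either array of GABPa alone was left out; with 1 array left out, the lone array being assumed to vary like the others, the change ran from 0.63 to 0.86. Limma adjusted p ran from 1.34e-09 to 0.525 over the alternatives. Sequences called higher (946) numbered 492 with quantile normalization, 3130 with normexp background, 578 in the authors' table unscaled, and 382 with genomic sequences added. Those called lower (371) numbered 5978 with the percentile over all custom spots, 578 with the array median, 913 unscaled, 780 with normexp, 2247 and 2687 in the authors' table scaled and unscaled, 869 with outlier spots kept, 1130 with an intensity trend, and 0 by limma with genomic sequences added (556 at an unadjusted p under 0.05). Without one array they ran from 839 to 1156 (higher) and 258 to 656 (lower; 656 without GABPa with CREB1 replicate 1). Relative to the intact site the counts of sites ran from 469 to 566 and 5653 to 5823, and of substitutions from 97 to 138 and 898 to 948. Sites called higher relative to the intact site (535) numbered 269 with quantile normalization, 340 in the authors' table with or without scaling and 271 there with dim sequences left out; sites called lower (5764) numbered 1260 and 1277 with dim sequences left out. Substitutions called higher (110) numbered 49 and 19, and lower (922) 216 and 219, with dim sequences left out (296 tested), and 60 were higher over all 6 placements.

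Without the replicate block, which here is the slide, 640 sequences were called lower and 1149 higher; the block changed no call at the mean intact site. Same-numbered arrays deviated in opposite directions (r = -0.24 over 6889 sequences), and a crossed pairing, an alternative chosen after seeing the data as were the last 2 forms of the authors' table, called 1256 higher and 802 lower. Among the combinations near the intact site the sign was not settled: alternatives gave -0.015 for G8A+C15A; -0.017 for G8A+A16G; -0.079, -0.026, -0.058 for A1G+C15G; -0.0036, -0.027, -0.12 for G8A+C15G; -0.11, -0.052, -0.12, -0.17 for A1G+T14A; -0.041, -0.14, -0.093, -0.17, -0.0019, -0.13 for A1G+A16C; -0.038, -0.14, -0.12, -0.21 for A1G+C15T; 0.026, 0.0094 for G8A+A16T. Without one array, A1G+A16C ran from -0.041 to 0.16 and A1G+C15T from -0.038 to 0.12. All 21 CRE singles kept their sign in every alternative run. With 2 arrays per group, signal near the background limits what can be measured, and a sequence below it may still be bound.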
